A study of Mus musculus with 4 samples.

Results

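The genes of clot formation and clot removal followed here through the cells of the mouse brain vasculature were Plat, Plau, Plaur, Thbd, Procr, Tfpi, F3 and Vwf. They were taken by symbol from the gene table of the deposited matrices, where each of the 8 was found once among 31053 genes. Their levels were read per library in each cell class, with arterial, capillary and venous endothelial cells (EC) kept apart.

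Fibrin is dissolved by plasmin, which is cut from plasminogen either by the tissue-type activator (Plat, tPA) or by the urokinase-type activator (Plau, uPA), the latter bound at the cell surface by its receptor (Plaur, uPAR). Clotting starts when tissue factor (F3), a membrane protein kept away from flowing blood by the endothelium, binds factor VII, a complex that tissue factor pathway inhibitor (Tfpi) blocks. On EC, thrombomodulin (Thbd) binds thrombin and the endothelial protein C receptor (Procr, EPCR) presents protein C to it, which turns thrombin from a clotting into an anticoagulant enzyme. Von Willebrand factor (Vwf), stored in EC granules and in platelets, tethers platelets to the injured wall and carries factor VIII. In the brain, tissue factor is known to be abundant in astrocytes, while thrombomodulin is known to be sparse compared with other organs.

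The cells came from male wild-type C57BL/6 mice of 12 to 14 weeks. In chronic social defeat (CSD), a mouse met an aggressive CD-1 mouse each day for 14 days and otherwise lived beside it behind a perforated divider, and home cage control (HC) mice spent 14 days beside a CD-1 mouse that was always behind the divider. Each condition had 8 mice, pooled 4 to a library, so that there were 2 libraries per condition, and the library, not the mouse or the cell, was the replicate. The p-values of CSD against HC therefore measure the spread between pools of mice. Tests that compare vessel zones held the library as a block, so theirs measure how zone differences vary between libraries. The libraries leave only 2 residual degrees of freedom in a CSD fit and 6 in the zone fit. The edgeR test therefore also draws each gene's spread towards that of the other genes, and very small p-values rest partly on this. After perfusion, brains were freed of cerebellum, striatum, brainstem, olfactory bulbs and white matter, digested with collagenase II and enriched for brain vascular-associated cells (BVACs) with beads against CD31, an EC surface protein, so that class shares were set partly by the beads, and no RNase inhibitor was used.

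The deposited values were raw counts of unique molecular identifiers (UMIs) for every barcode. Between 2553 and 4934 cells per library passed the filters (at least 500 UMIs, at least 250 genes and at most 25% mitochondrial UMIs), 14415 in all, with a median of 1408 to 2357 UMIs per cell. Levels are given as CPM (the count divided by all UMIs of the class in that library, scaled to a common total), and an error after a mean is the SD over 4 libraries unless another n is named. Among the EC were 302 arterial, 2425 capillary and 226 venous cells by marker lists that held none of the 8 genes, while 1514 EC lay between the zones and 43 were fenestrated. A clustering of all cells, on which the zone cuts were set and which is thus no independent check, put 247 of the 302 arterial and 1837 of the 2425 capillary cells in the matching class, but only 86 of the 226 venous cells. The defining markers summed to 4899 CPM in arterial, 9321 in capillary and 2904 in venous EC for their own zone, all above their level in the other 2 zones. These markers made the gate, so this too is no independent check. Capillary markers summed to 3911 CPM in venous EC, above the venous markers there, and to 3096 in arterial EC. Pericyte markers lay at 959 to 2892 CPM in arterial EC, against 318 to 594 in capillary and 479 to 627 in venous EC, and smooth muscle cell (SMC) markers at 1008 to 1933 against 99.9 to 246 and 97.1 to 391. Any 2 libraries shared 0 to 9 cell barcodes.

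Promoter sequences were available for F3, Plaur, Procr and Tfpi, and none for Plat, Plau, Thbd and Vwf. The sequence of 3 members is shown because their levels moved with the vessel zone or stood highest outside the EC. A further reason is that each holds a binding motif of AP-1, the factor family of Fos and Jun, genes that were also measured here. The sequences are RefSeq on GRCm38.p6, 5′ to 3′ on the gene's strand and upstream of the transcript. Capitals mark a match on either strand to the letters TGANTCA of AP-1. They also mark a GC box with the letters GGGCGG. Searched in the same way, but found in none of the windows shown, were the letters TATAAA of a TATA box and the core CCGGAA of the ETS factors. F3 lies at chr3:121723537-121735048 on the plus strand, Plaur at chr7:24462484-24475968 on the plus strand and Procr at chr2:155751117-155755471 on the plus strand (GENCODE M21, GRCm38), and the windows shown are chr3:121723287-121723536, chr7:24462233-24462482 and chr2:155750967-155751116.
F3: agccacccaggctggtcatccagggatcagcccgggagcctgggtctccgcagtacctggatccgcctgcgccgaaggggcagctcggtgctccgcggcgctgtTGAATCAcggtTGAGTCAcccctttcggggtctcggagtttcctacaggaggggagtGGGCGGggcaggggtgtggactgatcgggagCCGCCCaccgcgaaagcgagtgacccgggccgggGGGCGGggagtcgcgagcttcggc
Plaur: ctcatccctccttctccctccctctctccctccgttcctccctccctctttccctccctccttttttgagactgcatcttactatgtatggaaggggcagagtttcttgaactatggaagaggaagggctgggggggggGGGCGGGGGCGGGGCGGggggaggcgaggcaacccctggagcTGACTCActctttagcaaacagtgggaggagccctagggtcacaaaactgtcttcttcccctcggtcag
Procr: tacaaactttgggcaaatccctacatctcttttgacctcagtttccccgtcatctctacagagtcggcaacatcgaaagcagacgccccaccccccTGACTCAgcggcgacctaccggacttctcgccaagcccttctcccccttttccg

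The F3 window held 2 AP-1 matches and 3 GC boxes, the Plaur window 1 and 3, its GC boxes running into one another, and the shorter Procr window of 150 bases 1 and 0. Over all 32851 RefSeq promoters, 6.75% held the AP-1 letters, 32.7% a GC box, 12.4% a TATA box and 12.03% the ETS core in 250 bases. The 2 RefSeq windows of Tfpi, not shown, held 0 AP-1 matches and 1 GC box each, 1 of them also a TATA box. A match describes letters only, and no binding was measured. The windows shown were chosen for their AP-1 match, so the AP-1 share over all promoters is no test of them. The other members whose values are described below lie at chr8:22757727-22782844 (Plat, plus strand), chr14:20836660-20843385 (Plau, plus), chr2:148404466-148408188 (Thbd, minus), chr2:84432855-84476775 (Tfpi, minus) and chr6:125546774-125686679 (Vwf, plus), and none of the 8 overlaps another annotated gene.

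Plat, the tissue-type activator, had its highest levels in EC, pericytes and fibroblasts. It was highest in venous EC at 448 ± 202 CPM, followed by pericytes at 407 ± 99.6, capillary EC at 378 ± 142, arterial EC at 329 ± 85.9 and fibroblasts at 261 ± 79.8, and the library ranges of these neighbours overlapped. Pericytes gave 376, 549.7, 317 and 386 CPM for CSD libraries 1 and 2, then HC libraries 1 and 2. All 4 pericyte values lay above the 83.0 to 108 CPM of arterial SMC, the other mural class. Pericytes held EC markers at 1540 CPM, against 14494 in capillary EC, and the part of this in the Plat level was not tested. A clear gap separated fibroblasts from ependymal cells (140 ± 25.9 CPM), astrocytes (102 ± 35.2) and arterial SMC (94.3 ± 12.3). In choroid plexus cells and microglia Plat was at or below 5.30 CPM in every library, under the 22.7 to 67.9 CPM of free RNA, taken from barcodes of at most 100 UMIs. Of 4796 Plat UMIs in cells, 60.3% came from EC.

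Plau, the urokinase, was hardly found in EC: the 3 zones together held 1 UMI, in an arterial cell, and capillary EC had 0, which allows up to 0.862 CPM. Microglia carried 153 of the 194 Plau UMIs, at 16.2 and 6.98 CPM in the CSD libraries and 23.6 and 10.3 in the HC libraries. Border-associated macrophages, with 115 cells, reached 38.6, 0, 60.9 and 41.0 CPM on only 13 UMIs. The 2 plasminogen activators thus had different main sites in these preparations, Plat in EC, pericytes and fibroblasts by level and Plau in microglia by UMI count. By level, Plau was higher in border-associated macrophages than in microglia in every library but CSD library 2. The split was not complete. Plat also lay above free RNA in ependymal cells and arterial SMC. Arterial SMC held 9 Plau UMIs, at 1.66 to 8.26 CPM, a range that overlapped that of microglia.

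Plaur, the urokinase receptor, lay both in EC and in microglia. Microglia gave 100.4 and 74.3 CPM in the CSD libraries and 70.9 and 40.1 in the HC libraries and held 57.5% of the 1385 UMIs. Venous EC had 66.4, 102, 45.8 and 57.0 CPM in the same order of libraries, capillary EC 54.1, 61.2, 34.6 and 21.7, and arterial EC 28.5, 42.7, 24.9 and 43.5. The ranges of microglia and venous EC overlapped. The rare blood leukocytes stood above all of these: 18 Ccr2+ monocytes gave a pooled 429 CPM (95% Poisson interval 304 to 589) and 12 neutrophils, found in 3 of the 4 libraries, 1151 CPM (693 to 1797). These intervals cover counting error only. Free RNA held 5.69 to 12.8 CPM.

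F3, tissue factor, was highest in fibroblasts and astrocytes. Fibroblasts gave 891 and 2653 CPM in the CSD libraries and 1472 and 1027 in the HC libraries, on 10 to 32 cells each. Astrocytes followed at 341, 784, 432 and 561 CPM, below every fibroblast value. Oligodendrocyte precursors (66 cells) held 158 ± 58.0 CPM and ependymal cells 43.9 to 61.0 CPM, the latter within the 42.4 to 101 CPM of free RNA. Choroid plexus cells held 25.6% of all F3 UMIs, because they were many and deep, yet only 14.6 to 17.0 CPM, below free RNA. In the EC zones the mean lay between 0.977 and 4.44 CPM, in pericytes it was 4.95 and in arterial SMC 4.58. Every ependymal value lay above the highest library of these classes, 19.8 CPM in pericytes. The choroid plexus mean of 15.8 CPM lay above their means, near the 12.3 CPM of microglia. What part free RNA had in these levels was not tested. When every cell was thinned to 500 UMIs, 44.4% of fibroblasts and 20.3% of astrocytes kept an F3 UMI (71.9% and 42.6% unthinned) against 0% of arterial and venous EC and 0.364% of capillary EC (0.861%, 0.439% and 0.657% unthinned). Median depths were 2492 UMIs in fibroblasts and 1025 in astrocytes, and no cell was left out by the thinning.

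Tfpi, which blocks the tissue factor complex, was highest in fibroblasts at 104 and 168 CPM in the CSD libraries and 248 and 99.4 in the HC libraries. Pericytes gave 158, 175, 138 and 127 CPM, overlapping the fibroblasts and lying above every library of the classes that followed. Those were venous EC at 32.7 ± 5.0 CPM, capillary EC at 32.2 ± 8.5, microglia at 29.2 ± 3.4, arterial SMC at 24.5 ± 5.1 and arterial EC at 20.6 ± 3.7. The activator and its inhibitor thus shared the fibroblasts, while astrocytes had F3 with 1 Tfpi UMI in all and pericytes had Tfpi with 2 F3 UMIs in all.

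Thbd, thrombomodulin, was mostly endothelial, with 72.4% of 1483 UMIs in EC. Venous EC gave 207 and 159 CPM in the CSD libraries and 257 and 171 in the HC libraries, capillary EC 138, 148, 164 and 98.4, and arterial EC 114, 116, 90.3 and 87.0. Fibroblasts, at 137 ± 45.4 CPM, lay level with capillary EC, with EC markers at 780 CPM there, and pericytes followed at 27.1 ± 13.5. The 43 fenestrated EC, a type found where the barrier is open, held 326 ± 225 CPM on 53 UMIs. In microglia Thbd was at or below 4.31 CPM in every library, under the 7.74 to 15.3 of free RNA.

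Procr, the protein C receptor, was the sparsest EC member, with 301 UMIs in all. Arterial EC gave 36.3 and 30.5 CPM in the CSD libraries and 37.3 and 48.9 in the HC libraries. Venous EC gave 7.81, 17.7, 28.2 and 38.0 CPM and capillary EC 13.5, 11.2, 17.9 and 10.3, so every arterial value lay above every capillary value. Arterial SMC reached 20.5 ± 10.0 CPM. Free RNA held 1.43 to 2.59 CPM.

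Vwf was the member most bound to EC, with 76.2% of 1701 UMIs there. Venous EC gave 496 and 706 CPM in the CSD libraries and 546 and 485 in the HC libraries, arterial EC 156, 201, 121 and 185, and capillary EC 99.1, 114, 71.7 and 62.9. The 3 zones did not overlap. After thinning to 500 UMIs, 21.7% of venous, 10.9% of arterial and 4.25% of capillary EC kept a Vwf UMI, against 0.0609% of microglia. Unthinned, at median depths of 2095, 2978 and 1089 UMIs, these shares were 57.0%, 38.9% and 10.4%, against 0.336% of microglia at 2114 UMIs. Platelet markers, whose cells also hold Vwf, summed to 0 to 14.1 CPM in venous, 0 to 46.7 in arterial and 4.58 to 10.5 in capillary EC.

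**Figure D1:**
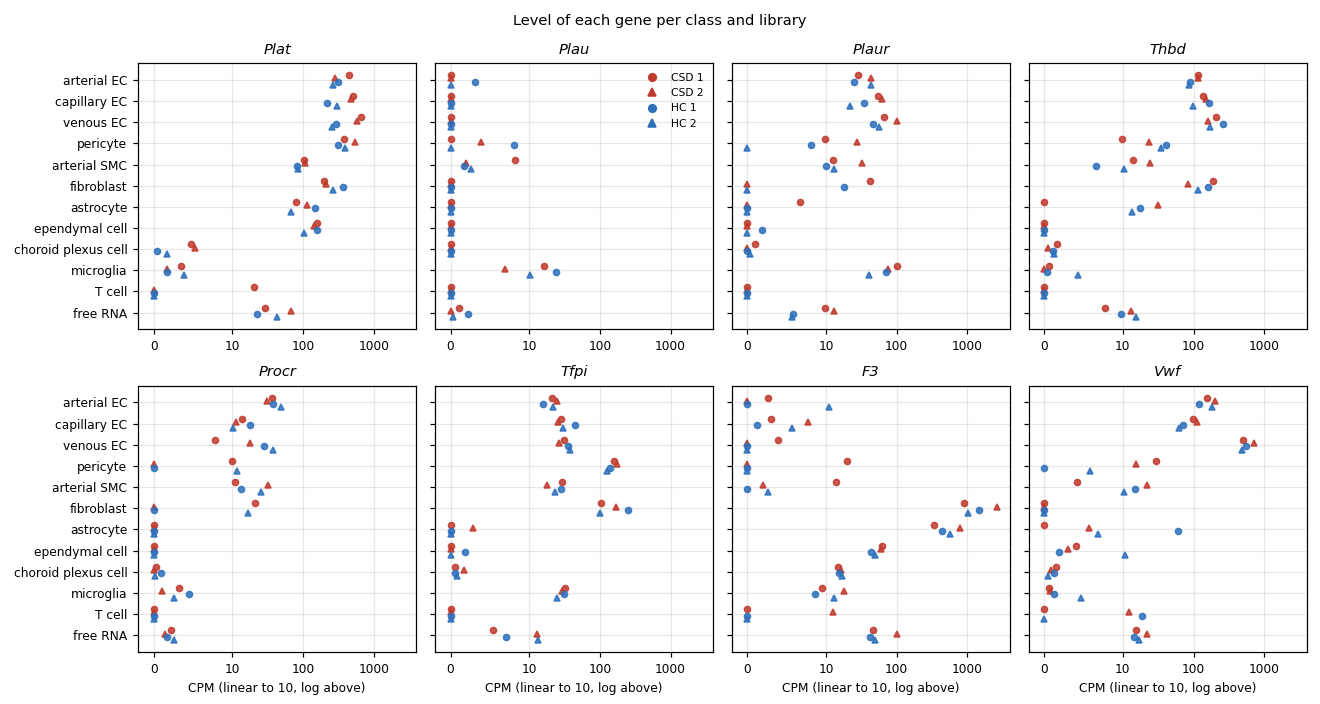
CPM of each gene (horizontal axis, linear to 10 and logarithmic above) in 11 cell classes and in free RNA, 1 point per library, circles and triangles for libraries 1 and 2, red for CSD and blue for HC. Plat lies between 219 and 664 CPM in the EC zones and pericytes, F3 is highest in fibroblasts at 891 to 2653 CPM, and Vwf in venous EC at 485 to 706 CPM.

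The next question was which members differed between the zones of the vascular tree. Vwf, Thbd, Plaur, Plat and Procr passed the low-count filter there, and Plau, Tfpi and F3 did not. Zones of the same library were compared with edgeR's quasi-likelihood test with Benjamini-Hochberg adjustment over 5096 genes, with the library as a block. Of all genes tested, 19.8% were called between arterial and capillary, 11.8% between venous and capillary and 15.9% between arterial and venous EC, so calls were common, and the members passed in 9 of 15 tests. Among the members tested the median log2 difference was -0.12, 0.65 and -0.99 in that order, with the median over all genes between -0.01 and 0.

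Vwf was 6.58-fold higher in venous than in capillary EC (log2 2.72, SE 0.13, adjusted p = 2.08e-24, edgeR's quasi-likelihood test) and 0.93 higher on the log2 scale in arterial than in capillary EC (SE 0.16, adjusted p = 8.02e-06). Arterial against venous EC gave -1.79 (SE 0.14, adjusted p = 2.24e-15). All 4 libraries had the same order of zones. With classes taken from the clusters, the difference of arterial from capillary EC was -0.11 (adjusted p = 0.675), while the other 13 of its 14 alternatives were past the threshold (from 2.81e-07). The complexity filter and the removal of cells marked as doublets kept the same cells in the 3 zones. These alternatives could only repeat the main zone tests.

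The 2 receptors of the protein C pathway had their highest mean in different zones, though their zone patterns were not tested against each other. Procr was higher in arterial than in capillary EC (log2 1.53, SE 0.36, adjusted p = 0.000998), on 40 arterial and 45 capillary UMIs. It passed the low-count filter mainly through its arterial values, the high side of this difference. It could be tested in 9 of 14 alternatives and was past the threshold in each. Being testable leaned on the high arterial level, so this count is no separate support. Venous EC lay between the other zones for Procr, at log2 0.67 above capillary (SE 0.46, adjusted p = 0.425) and 0.86 below arterial EC (SE 0.44, adjusted p = 0.201). Thbd was highest in venous EC, where the log2 difference was 0.54 from capillary (SE 0.15, adjusted p = 0.00759) and 0.99 from arterial EC (SE 0.19, adjusted p = 4.02e-05). The gain of Thbd over capillary EC passed the threshold in 8 of 14 alternatives. Its lower level in arterial than in capillary EC (-0.45, SE 0.17, adjusted p = 0.0488) passed in only 4 of 14, with adjusted p from 0.0482 to 0.906.

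Plaur was lower in arterial than in venous EC (log2 -0.99, SE 0.32, adjusted p = 0.0236), and its venous excess over capillary EC was 0.65 (SE 0.25, adjusted p = 0.0816). Plat had the smallest differences of the 5: arterial lay below venous EC (-0.41, SE 0.14, adjusted p = 0.0317), while venous against capillary EC gave 0.29 (SE 0.12, adjusted p = 0.115) and arterial against capillary EC -0.12 (adjusted p = 0.558). In the HC libraries Plat ran from 219 to 314 CPM across the zones, without a fixed order. From capillary to venous EC it was higher in both CSD libraries and HC library 1 and lower in HC library 2.

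Several of these calls leaned on single libraries. Thbd in venous against capillary EC had an adjusted p of 0.0611 without CSD library 1 and 0.114 without HC library 1, and Thbd in arterial against capillary EC 0.0779, 0.0879 and 0.351 without CSD library 1, CSD library 2 and HC library 1. Without the same 3 libraries in turn, Plaur in arterial against venous EC gave 0.192, 0.138 and 0.0537, and Plat gave 0.314 without CSD library 1 and 0.287 without CSD library 2. Immediate-early genes, a list of 17 that tissue digestion is known to induce, differed along with the zones. Of the 17, 14 were higher in arterial and 13 in venous than in capillary EC, against 519 and 371 of all 5096 genes. Their part in the zone differences was not tested. Leaving out EC with more than 1 UMI of mural markers kept 125 arterial, 2127 capillary and 161 venous cells, in which Vwf held means of 288, 91.6 and 504 CPM and Procr 57.6 in arterial against 13.6 CPM in capillary EC. Thbd, in contrast, then had 135 CPM in both venous and capillary EC.

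**Figure D2:**
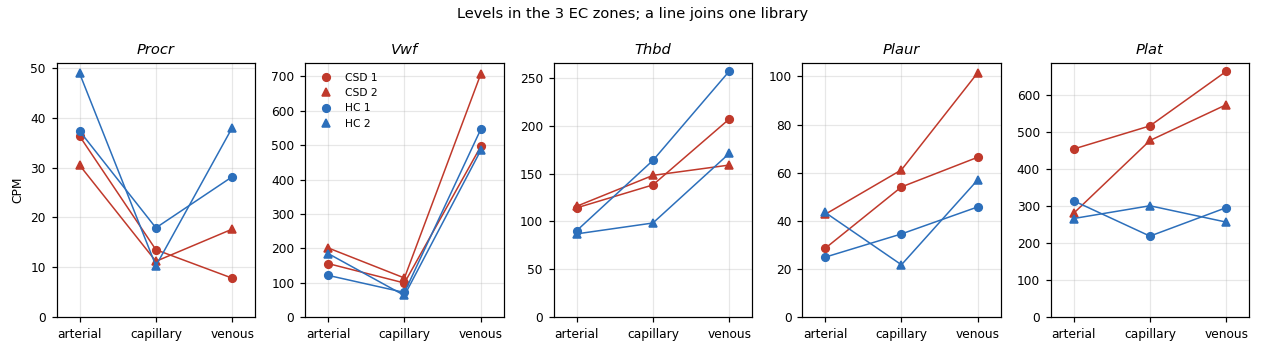
CPM (vertical axis) of the 5 members tested between zones, with a line joining the 3 EC zones of each library, red for CSD and blue for HC. Every line for Vwf dips in capillary EC and peaks in venous EC (485 to 706 CPM), and every line for Procr starts above its capillary value, from 30.5 to 48.9 CPM in arterial EC.

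The design's main question was what chronic defeat changed. Each class was compared between the 2 CSD and the 2 HC libraries with edgeR's quasi-likelihood test. Plat was the 1 member called: it rose in capillary and in venous EC. The test called few genes in any class, 0.379% of 7919 in capillary EC, 0.413% of 4114 in venous EC and 0.0234% of 4266 in arterial EC. Most genes called were higher in CSD, as Plat was: 27 of 30 in capillary, 17 of 17 in venous and 1 of 1 in arterial EC. Of the 14 tests of members in the zones, 2 were called and 4 had an unadjusted p under 0.05. Of all genes, 692 in capillary, 320 in venous and 241 in arterial EC were under that unadjusted cut.

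In capillary EC Plat stood at 517 and 477 CPM in the CSD libraries and at 219 and 301 CPM in the HC libraries, a mean of 497 ± 27.9 against 260 ± 58.0 (SD, n = 2 each), with no overlap. The fold was 1.97 (log2 0.98, SE 0.18, adjusted p = 0.0205). Venous EC gave 664 and 574 CPM in the CSD and 296 and 257 in the HC libraries, 2.25-fold higher (log2 1.17, SE 0.23, adjusted p = 0.0345). The EC between the zones, which entered no test, had 543 and 424 CPM in the CSD and 316 and 253 in the HC libraries. Arterial EC, with 454 and 280.5 CPM against 314 and 266, did not pass (log2 0.38, SE 0.27, adjusted p = 0.958), and its groups overlapped.

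Both calls were lost with at least 1000 UMIs per cell (capillary 0.85, adjusted p = 0.0938, venous 1.19, adjusted p = 0.0659) and without EC holding over 1 mural marker UMI (0.87, adjusted p = 0.0869, and 1.17, adjusted p = 0.273), by edgeR. The venous call was also lost with DESeq2 (adjusted p = 0.0580), with clusters as classes (0.0634) and with the stricter gate (0.177). Leaving out 1 library left 1 in its arm, which was assumed to vary like the other arm. Without HC library 1 the capillary difference was 0.78 (adjusted p = 0.274, the highest of its 14 alternatives, which began at 4.94e-07). The venous adjusted p rose above the threshold without CSD library 1 (1.04, adjusted p = 0.0849), without HC library 1 (1.32, adjusted p = 0.343) and without HC library 2 (1.08, adjusted p = 0.869, the highest of a range from 0.000144). HC library 2 held 27 Plat UMIs in its 48 venous cells, against 170 UMIs in the 57 cells of CSD library 1. The log2 difference of Plat was above 0 in every alternative, from 0.78 to 1.22 in capillary and from 1.04 to 1.32 in venous EC. Of the 14, 11 and 6 were past the threshold. These counts include the complexity filter and the removal of marked doublets, which kept the same EC as the main fit.

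**Figure D3:**
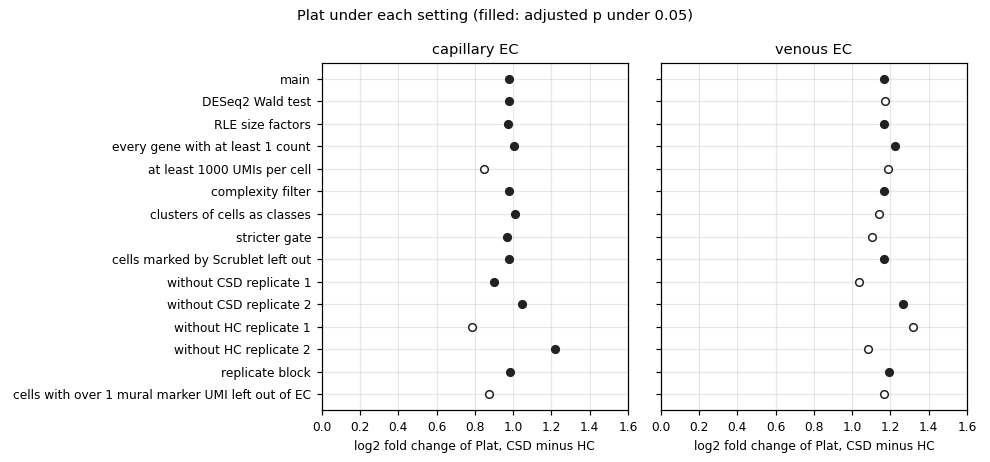
Log2 fold change of Plat, CSD minus HC (horizontal axis), in capillary and venous EC under the main test and 14 alternatives (vertical axis). Filled points had an adjusted p under 0.05. Capillary values lie between 0.78 and 1.22 and venous values between 1.04 and 1.32, and fewer venous than capillary points are filled.

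Plaur and Vwf in capillary EC had groups that did not overlap but missed the threshold. Plaur was at 54.1 and 61.2 CPM in the CSD and 34.6 and 21.7 in the HC libraries (2.14-fold, SE 0.28 on the log2 scale, adjusted p = 0.111), and Vwf at 99.1 and 114 against 71.7 and 62.9 (log2 0.72, SE 0.20, adjusted p = 0.168). For Plaur the venous log2 difference was 0.78 (SE 0.42, adjusted p = 0.722) and the arterial one 0.06. For Vwf these were 0.23 and 0.24. The anticoagulant members gave small values in either direction: Thbd 0.38 in arterial, 0.18 in capillary and -0.26 in venous EC, and Tfpi -0.42 in capillary EC.

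A few immediate-early and glucocorticoid-response genes also passed the test in these classes. In capillary EC the 17 immediate-early genes summed to 18203 and 25451 CPM in the CSD and 13458 and 16280 in the HC libraries, with a median log2 difference of 0.61, and Fosb (0.87) and Klf6 (0.85), both activity-induced transcription factors, rose. In venous EC the sums were 29379 and 31107 against 20746 and 30841, the median was 0.33 and 0 of 17 passed. The 9 glucocorticoid-response genes summed to 2847 and 3979 against 2275 and 2231 CPM in capillary EC (median 0.71) and to 4697 and 5126 against 2557 and 2548 in venous EC (median 0.99). The cell-cycle inhibitor Cdkn1a rose in both (1.51 and 1.58) and the metallothionein Mt2 in venous EC (1.28). The glucocorticoid-response median was above 0 in every class tested, from 0.10 in astrocytes to 1.28 in fibroblasts and 1.72 in T cells, the last on 1 gene. It was 0.67 in arterial EC and 0.90 in pericytes. No gene of that list was called outside capillary and venous EC. The part of either list in the Plat difference was not tested. Red cell markers ran from 5.72 to 2798 CPM in capillary EC, with the highest value in HC library 1.

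**Figure D4:**
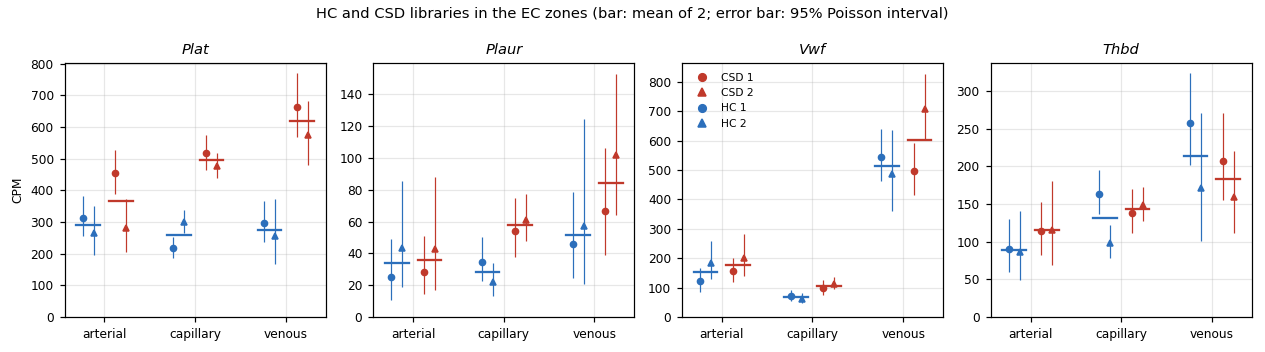
CPM (vertical axis) of Plat, Plaur, Vwf and Thbd in the 3 EC zones, 1 point per library with its 95% Poisson interval, blue for HC and red for CSD, the bar marking the mean of 2. For Plat the CSD points lie above both HC points in capillary (477 and 517 against 219 and 301 CPM) and venous EC (574 and 664 against 257 and 296 CPM), and overlap them in arterial EC.

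Outside the EC zones, 0 of 18 member tests were called by edgeR or by DESeq2, and 1 had an unadjusted p under 0.05. That 1 was in choroid plexus cells, where 385 of all 11580 genes were under this cut. The shares of all genes called were 0.24% in astrocytes, 0.0518% in choroid plexus cells and 0.0353% in pericytes, and 0% each in arterial SMC, ependymal cells, fibroblasts, microglia and T cells, where 0 members passed the low-count filter. Plat in pericytes was 0.43 higher in CSD (SE 0.26, adjusted p = 0.999) and in fibroblasts 0.63 lower (SE 0.39, adjusted p = 0.888), with groups of 197 and 211 against 372 and 265 CPM. F3 gave 0.55 in fibroblasts (SE 0.61) and 0.18 in astrocytes (SE 0.56), where the 2 CSD libraries alone spanned 341 to 784 CPM. Tfpi in pericytes was 0.36 (SE 0.29), with 158 and 175 CPM above 138 and 127.

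Plaur in microglia was 0.70 higher in CSD (SE 0.30, unadjusted p = 0.0537 and adjusted p = 0.9999 by edgeR), at 100.4 and 74.3 against 70.9 and 40.1 CPM. The groups did not overlap, but libraries of the same condition lay nearly as far apart as the condition means. The single unadjusted p under 0.05 was Plat in choroid plexus cells (log2 2.10, SE 0.49, adjusted p = 0.263), where the level was 4.78 and 5.30 CPM in CSD and 0.467 and 1.73 in HC libraries. All 4 lay under the Plat of free RNA, 28.6 and 67.9 CPM in the CSD and 22.7 and 42.2 in the HC libraries. The part of free RNA in the difference was not tested.

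**Figure D5:**
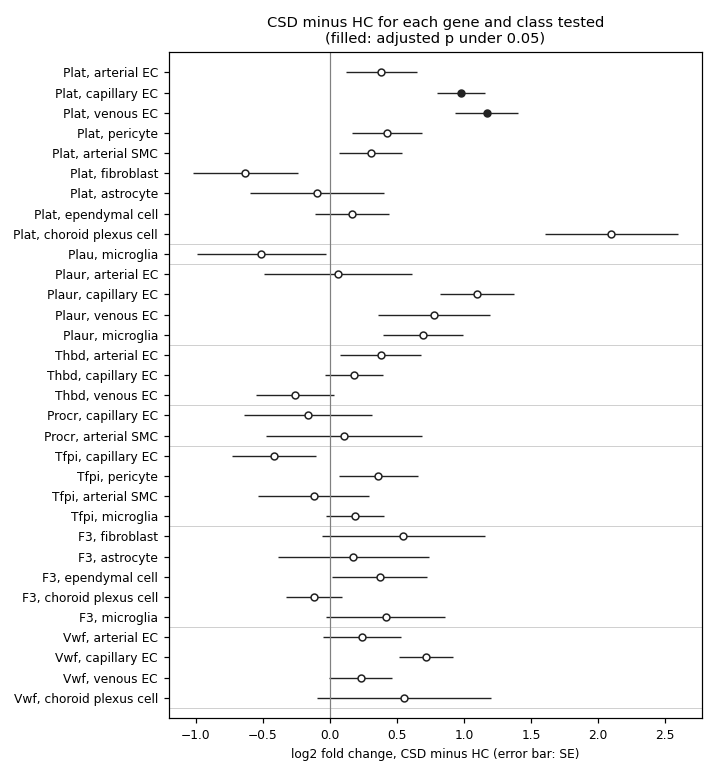
Log2 fold change, CSD minus HC (horizontal axis, bars show the SE), for the 32 tests of a member in a class (vertical axis). The 2 filled points, Plat in capillary (0.98) and venous EC (1.17), had an adjusted p under 0.05. Plat in choroid plexus cells (2.10) rests on levels under those of free RNA.

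Whether the effect of defeat differed between the zones was tested by the interaction of condition and zone. By edgeR 0 of 18 member tests were called (2 at an unadjusted p under 0.05) and by DESeq2 0. Of all 5890 genes, edgeR called 0%, 0.034% and 0.0849% in the 3 zone pairs. Those with an unadjusted p under 0.05 numbered 261, 278 and 299 in the same order. For Plat the CSD effect was 0.62 lower in arterial than in capillary EC (SE 0.23, unadjusted p = 0.00820, adjusted p = 0.99999) and 0.78 lower than in venous EC (SE 0.26, unadjusted p = 0.00430, adjusted p = 0.666). Venous and capillary effects lay 0.16 apart (SE 0.23). A different response of arterial EC was thus not established. The test was weak here: in simulated counts, the venous against capillary interaction recovered 4% of 2-fold and 54% of 4-fold changes.

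The rest of the pathway was read from 48 other genes of fibrinolysis and coagulation. They were read in the 11 classes with at least 10 cells in every library. Most were scarce there: 22 reached 20 CPM in a class and 17 stayed under 3 CPM in all of them. Rarer classes, such as border-associated macrophages, monocytes and neutrophils, are not covered by these counts. Of the 13 that could be tested between zones, arterial exceeded capillary EC in 6 and fell below it in 2. Venous exceeded capillary EC in 4, and arterial exceeded venous EC in 3 and fell below it in 1. Of all 5096 genes, 519 were higher and 490 lower in arterial than in capillary EC. For venous against capillary EC these were 371 and 231, and for arterial against venous EC 377 and 434. The plasmin receptor pair S100a10 and Anxa2 was higher in both larger vessels than in capillary EC (arterial log2 1.82 and 0.68, venous 1.42 and 0.62), as was Gas6, a vitamin K-dependent ligand (0.85 and 0.64). Arterial EC had more Entpd1, the ectonucleotidase CD39 that removes platelet-activating ADP (1.28), and more Mmrn2, an EC matrix protein (0.88), and less of the protease inhibitor Serpine2 (-1.01).

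Factor V (F5), the cofactor of prothrombin cleavage that activated protein C destroys, had the same order of zone means as Thbd. It stood at 67.2 ± 19.5 CPM in venous, 11.7 ± 5.3 in capillary and 1.5 ± 3.0 in arterial EC, the last on 1 UMI. Choroid plexus cells were its main site at 325 ± 20.9 CPM. Between CSD and HC, edgeR called 0 of the other pathway genes in any class, with 1 (T cells) to 19 (choroid plexus cells) of them tested per class. Over all classes together, 5 of these tests had an unadjusted p under 0.05, and no result is read from this count. Of all genes, 692 of 7919 in capillary and 320 of 4114 in venous EC were under that cut.

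The genes whose level most resembled that of each member over 11 classes (Pearson r of log levels of class means, which share libraries and depth) were Pard3 (0.957), Gna11 and Wwtr1 for Plat, Vwa1 (0.980), Itm2a and Reck for Thbd, and Sox7 (0.979), Tmem252 and Ephb4 for Vwf, Ephb4 being 1 of the markers used to choose venous EC. They were Cenpb (0.969), Kctd10 and A4galt for Procr, Eya1 (0.980), Aspa and Robo2 for F3, and Fkbp7 (0.934), AI837181 and Il13ra1 for Tfpi. For Plaur they were Fam114a2 (0.957), Ecscr and Lrch1, and for Plau they included Bin1 (0.950) and Snx17. They are the best of 7302 genes that reached 50 CPM in a class, with 10 CPM added to each level before the log. Plau and Procr stayed under that cut, with highest class means of 14.3 and 38.3 CPM. After microglia the next class mean of Plau was 3.62 CPM, so its correlations were set largely by 1 class.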

How the data were processed

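Brain vascular-associated cells were profiled with 10x 3′ v3.1 chemistry, and the deposited files are the raw UMI count matrices of all barcodes, which the authors made with Cell Ranger (4.0 per the submitters' processing notes, 3.1.0 in the matrix headers, and a later version in the study's methods) on GRCm38. The counts were not normalised by the authors. Their methods left a doublet cluster out of their own tests, but the deposited matrices hold every barcode. Depth was 27297599 to 30361474 UMIs per library, of which 32.6% to 56.8% were in cells.

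Cells were assigned to classes by fixed marker lists that hold none of the 8 genes. A cell needed at least 3 marker UMIs from at least 2 markers, and arterial and venous EC at least 3 zone markers. The cut between zones was set on the clusters (scanpy 1.11.5), not on the members. Cells near it numbered 27 arterial, 260 capillary and 67 venous. Scrublet marked 0.0981% to 1.48% of cells per library, under 0.5% in both CSD libraries, and was not used as a filter. Counts were summed per class and library, filtered with edgeR's low-count filter, scaled by TMM and tested with edgeR's quasi-likelihood test (edgeR 4.0.16, R 4.3.3; Benjamini-Hochberg, threshold 0.05), as in the design fixed for the comparison of conditions and, with library as a block, of zones. DESeq2 1.42.0 was an alternative. Each fit covered all genes of the class that passed the filter. The capillary, venous, venous against capillary and 1 interaction fit (venous against capillary) were tested on counts simulated with a preset spread. Of 2-fold changes, 37.2%, 27.3%, 65.3% and 4% were recovered in that order, and of 4-fold changes 91.7%, 85.9%, 97.9% and 54%. Fibroblasts, T cells, pericytes and venous EC were summed to 23743, 49637, 100986 and 105184 UMIs in their shallowest library. Intervals are Poisson, at 95%, and a count of 0 was bounded by 3 counts.

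The members, the lists and the motifs were chosen with earlier results of these data known. All 8 members are named; of the other pathway genes, up to 5 per comparison and direction with the smallest adjusted p, or else those with the highest levels (F5 levels in other classes were added after their values were seen); and for likeness the 3 highest correlations, of which 1 gene is not reported here. Alternatives were a second tool, other scaling, no low-count filter, cell filters, clusters as classes, stricter gates, a replicate block and each library left out, and 1 that was chosen after seeing the data, leaving out EC with more than 1 mural marker UMI. Promoter letters came from RefSeq for F3, Plaur, Procr and Tfpi.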

Additional observations from a re-analysis of the deposited data

How the results depend on the processing

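Of the 15 zone tests of members, 9 were called, against 5 with DESeq2, 5 with the stricter gate, 5 with no library block, 3 without EC holding over 1 mural marker UMI, and 5 to 8 without 1 library. Fewer cells entered the stricter and mural-free fits. A few differences changed sign: with clusters as classes, Thbd and Vwf in arterial against capillary EC came to 0.037 and -0.11, and without mural-marked EC Thbd in venous against capillary EC came to -0.020. The cause was not tested. Vwf in venous against capillary and against arterial EC passed in all 14 alternatives. Among these, the complexity filter and the removal of marked doublets left the EC of the 3 zones unchanged.

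The 2 member calls between CSD and HC in the EC zones became 1 with DESeq2, with clusters as classes and with the stricter gate. They became 0 at 1000 UMIs or more per cell and without mural-marked EC. Such counts cover every member tested, so a call in an alternative need not be a Plat call of the main fit. A fit without 1 library left 1 in its arm, and no count of calls is given for it here. In other classes, testing every gene with at least 1 count gave 1 call (Plat in choroid plexus cells) where there had been 0. The count of interaction calls was 0 in every alternative. Over all genes in the EC zones, 48 CSD calls became 213 with every gene tested and 14 without mural-marked EC.

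Over 11 classes, libraries of the same number deviated together most in microglia (correlation 0.42). The other classes ran from -0.01 in capillary EC to 0.25 in fibroblasts, and with 2 pairs the numbers were not taken as a pairing. With the replicate block the EC zones had 4 member calls, adding Vwf (adjusted p = 0.0426) and Plaur (adjusted p = 0.00792) in capillary EC, both by edgeR, and 196 calls over all genes.

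Low counts limit comparisons of Plau and F3 in EC and of Procr everywhere, and the 48 to 62 venous cells per library limit every venous comparison. The levels themselves were low in capillary EC: 0 Plau UMIs, which allows up to 0.862 CPM, and an F3 mean of 4.44 CPM. A p that missed the threshold with 2 libraries per condition does not show that levels were alike.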

Other observations

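The 43 fenestrated EC, which entered no test, held Thbd at 228 and 128 CPM in the CSD and 645 and 302 in the HC libraries, and Procr at a pooled 65.8 CPM (95% Poisson interval 32.8 to 118, on 11 UMIs). Plat there was 140 ± 116 CPM (SD, n = 4), with 307 CPM in CSD library 1 and 58.7 in HC library 1. The 1514 EC between the zones had Vwf at 165 ± 46.2 CPM, near the arterial mean of 166 ± 35.1, Thbd at 130.0 ± 14.9 and Procr at 15.5 ± 2.8 CPM.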
